A study of Homo sapiens with 6 samples.

Results

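The E2F transcription factors and their DP partners were followed in Mum-2b, a uveal melanoma cell line, after knockdown of NELFCD. The 10 members were the rows of the count table named E2F1 to E2F8, TFDP1 and TFDP2, out of 58735 genes, and all 10 passed the filter on low counts that left 14844 genes for testing. Libraries came from 3 control samples, given as wild type, and 3 samples of NELFCD knockdown, whose titles name a single short hairpin RNA (shRNA). No time after knockdown was given, and the labels do not say which of 2 RNA kits each sample was extracted with, whether the controls carried a hairpin, or whether replicates were separate cultures. P-values therefore measure the spread between these libraries, and effects of the hairpin outside its target cannot be told apart from those of losing NELFCD.

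E2F proteins bind DNA at promoters of genes for DNA synthesis and cell division, and E2F1 to E2F6 do so as heterodimers with a DP protein. E2F1, E2F2 and E2F3 act mainly as activators and are held in check by the retinoblastoma protein, until cyclin-dependent kinases release them late in G1. E2F4 and E2F5 act mainly as repressors with the pocket proteins p107 and p130, E2F6 represses through Polycomb complexes, and the atypical E2F7 and E2F8 repress without a DP partner or a pocket protein. Several E2F genes are themselves E2F targets. NELFCD belongs to the negative elongation factor complex, which keeps RNA polymerase II paused near promoters.

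NELFCD, the targeted gene, was measured at 65.3, 88.2 and 83.4 CPM (counts scaled to library size) in the controls and 20.6, 37.4 and 40.2 CPM in the knockdowns, so its groups did not overlap. In each such series the libraries are in the order of replicates 1 to 3. Depth was 14306733 to 16656630 counts per library. Melanocyte markers were scarce: the 7 summed to 7.49 to 10.7 CPM in controls and 7.59 to 18.2 CPM in knockdowns, 0 of the 3 tested passed, and TYR averaged 0.02 CPM or less in either group. Among the lists for other cell types, the endothelial markers separated the groups, with sums of 125 to 165 CPM in controls and 54.2 to 57.9 CPM in knockdowns, most of it CDH5 (mean 139.9 and 53.6 CPM), whose part in the results below was not tested. The epithelial, fibroblast and leukocyte lists summed to 2.05 CPM or less in every library, although the epithelial sums also separated the groups (0.811 to 1.27 CPM in controls, 0.132 to 0.274 CPM in knockdowns). Replicate 1 of both groups stood apart from replicates 2 and 3, and same-numbered libraries deviated together, so the replicate number was entered in the model as a block. Libraries of unlike number were not compared, so a pairing of replicates 2 and 3 by number was not tested. Calls below are from that blocked fit (edgeR's quasi-likelihood test, Benjamini-Hochberg adjusted p under 0.05 over all genes) unless stated. It called 813 rises and 1189 falls, and with upper-quartile scaling 1198 rises and 986 falls.

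E2F1, E2F2 and E2F8 fell in the knockdown, and 0 of the 10 members rose. The other 7 members did not pass, with log2 fold changes from -0.02 to 0.20. In this fit 13.5% of all genes tested passed in either direction, 5.48% rising and 8.01% falling. DESeq2 with the block called E2F1 and E2F8, both lower, where 10.1% of the genes it tested passed (3.33% higher, 6.8% lower). The median over the 10 members was 0.01, against 0.0001 over all genes tested. Without the block, edgeR called 0 of the 10 members and 0% of all genes, 0 members had an unadjusted p under 0.05, and limma-voom and DESeq2 also called 0 members, while over all genes 954 had an unadjusted p under 0.05 in edgeR and DESeq2 called 161. No member separated the 3 knockdown from the 3 control libraries, where 7.34% of all genes lay lower and 7.63% higher in every knockdown library, and exact two-sided permutation p-values over libraries were 0.3 to 0.9, where 3 against 3 can reach 0.1 at best. Within pairs, E2F1, E2F2, E2F4 and E2F8 were lower in all 3, as were 26.9% of all genes, and E2F5 and E2F7 higher, as were 25.7%. In replicates 2 and 3 alone E2F1, E2F2 and E2F8 did not overlap and lay lower, where 29.9% of all genes did, and E2F3, E2F5, E2F7 and TFDP2 did not overlap and lay higher, where 29.8% did.

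**Figure D1:**
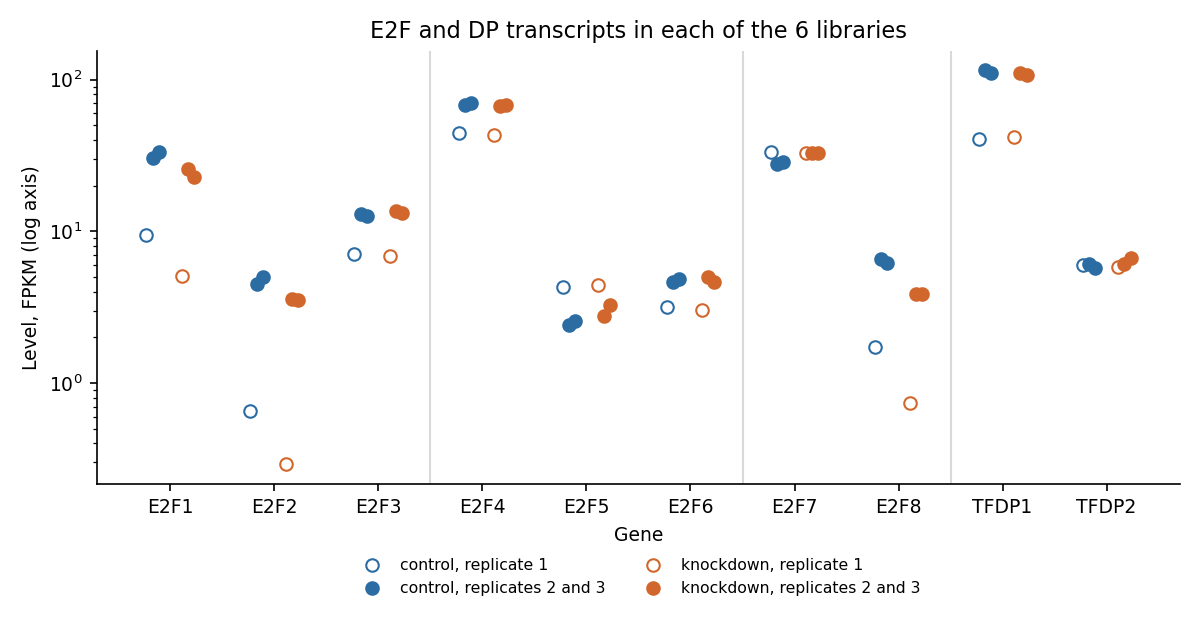
Level of each member in each library, in deposited FPKM (fragments scaled by gene length and library size, log axis). Blue circles are controls and orange circles knockdowns, open for replicate 1 and filled for replicates 2 and 3; the open circles of E2F1, E2F2 and E2F8 lie below the filled ones, and within each replicate number their knockdown lies below the control.

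E2F1 (ENSG00000101412, chromosome 20, 33675683 to 33686404, hg38) encodes the founding activator of the family. Controls held 24.0, 75.5 and 83.2 CPM and knockdowns 13.1, 64.5 and 57.5 CPM. Each knockdown library lay below the control of its own number, but the groups overlapped because control replicate 1 was low. Within pairs 1 to 3 the knockdown held 54.7%, 85.4% and 69.1% of the control level. The blocked log2 fold change was -0.50 ± 0.109 (SE; adjusted p = 0.020 in edgeR's blocked fit), and E2F1 passed in 10 of 10 fits with the block. Over the 24 alternatives its adjusted p ran from 2.8e-09 to 1.

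E2F2 (ENSG00000007968, chromosome 1, 23506430 to 23531220, hg38), an activator close to E2F1 in function, was the least abundant of the activators. It stood at 3.62, 24.5 and 27.2 CPM in the controls and 1.66, 19.6 and 19.2 CPM in the knockdowns. Both replicate 1 libraries were far below the rest, and the groups overlapped. Pair 1 rested on 53 control and 25 knockdown reads, with exact 95% Poisson intervals of 2.69 to 4.69 and 1.11 to 2.53 CPM of total counts, which cover counting error only. This gave a log2 fold change of -0.51 ± 0.138 (SE; adjusted p = 0.043 in edgeR's blocked fit). The call held in 5 of 10 blocked fits: it was lost with DESeq2 (adjusted p = 0.055), upper-quartile scaling (0.051), a mean of at least 5 CPM (0.052), without pair 2 (0.072) and without pair 3 (0.074), and the adjusted p over 24 alternatives ran from 0.00034 to 1.

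E2F3 (chromosome 6, 20401906 to 20493715, hg38), the activator gene with an upstream and a downstream promoter, did not pass. It was at 37.5, 66.6 and 65.2 CPM in controls and 37.1, 69.8 and 68.3 CPM in knockdowns. The knockdown lay above the control in pairs 2 and 3 and marginally below it in pair 1. Its log2 fold change was 0.04 (95% interval -0.11 to 0.20; adjusted p = 0.71 in edgeR's blocked fit). Gene counts do not separate the transcripts of the 2 promoters.

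The promoters of E2F1 and E2F2, the activators that fell, are shown because E2F genes are known E2F targets. Each line gives the 250 bases before the RefSeq start (GRCh38.p14), 5′ to 3′ on the gene's own strand, which is the minus strand for both, with E2F words in capitals.
E2F1, chr20:33686386-33686635: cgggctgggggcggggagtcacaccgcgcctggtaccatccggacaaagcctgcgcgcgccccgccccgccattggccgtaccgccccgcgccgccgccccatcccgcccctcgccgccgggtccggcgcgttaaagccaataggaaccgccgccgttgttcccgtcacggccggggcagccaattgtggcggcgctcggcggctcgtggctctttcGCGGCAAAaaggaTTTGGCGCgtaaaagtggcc
E2F2, chr1:23531234-23531483: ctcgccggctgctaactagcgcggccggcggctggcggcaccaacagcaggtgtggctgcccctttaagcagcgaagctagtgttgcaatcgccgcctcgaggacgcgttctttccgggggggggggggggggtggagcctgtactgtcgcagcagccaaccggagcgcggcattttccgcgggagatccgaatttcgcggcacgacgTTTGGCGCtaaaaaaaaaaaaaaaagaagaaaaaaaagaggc
The words searched on both strands were TTTGGCGC, TTTCCCGC, TTTGCCGC and TTTCGCGC. E2F1 held 2 of them without overlap, TTTGCCGC on the opposite strand 33 to 26 bases before the start and TTTGGCGC 20 to 13 bases before it, and E2F2 held TTTGGCGC 42 to 35 bases before the start. By the deposited coordinates E2F1 begins at 33686404 on the minus strand. The last bases of its window, with most of the TTTGGCGC there, therefore lie inside that gene. An E2F word stood in 2.79% of all 35116 RefSeq promoter windows of this length, and 2 or more in 0.122%. The table matched 8 of the 10 members with 11 windows, and E2F5 and E2F8 had no entry. Among the members that did not fall, 1 of 2 E2F3 windows (its upstream start) and TFDP1 held 1 word each, while the windows of E2F4, E2F6, E2F7 and TFDP2 held none of these letters. The pentamer CCAAT, searched on both strands, occurred 3 times in the E2F1 window, 4 times in that of E2F7 and 0 times in that of E2F2, and stood in 32% of all windows.

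E2F8 (ENSG00000129173, chromosome 11, 19224063 to 19241620, hg38), an atypical repressor, had the largest fall among the members. It measured 7.24, 27.1 and 25.5 CPM in the controls and 3.18, 16.0 and 16.1 CPM in the knockdowns. Replicates 2 and 3 of the knockdown lay below both matching controls but above control replicate 1, so the groups overlapped. The knockdown held 43.9%, 59.0% and 62.9% of the control level in pairs 1 to 3. E2F8 fell by a log2 fold change of -0.81 ± 0.124 (SE; adjusted p = 0.0057 in edgeR's blocked fit), the call held in 10 of 10 blocked fits, and the adjusted p over 24 alternatives ran from 1.7e-10 to 1. Only 7 of its 4140 exon bases (0.169%) lie in another annotated gene.

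E2F7 (ENSG00000165891, chromosome 12, 77021247 to 77065580, hg38), the other atypical repressor, did not fall with E2F8. It was at 212, 173 and 180 CPM in controls and 213, 206 and 209 CPM in knockdowns. Control replicate 1 lay among the knockdown libraries, while control replicates 2 and 3 lay below all of them. The estimate was a log2 fold change of 0.16 (95% interval 0.01 to 0.31), which did not pass over all genes (adjusted p = 0.15 in edgeR's blocked fit). In replicates 2 and 3 alone, where 27.6% of all genes were called (12.7% rising, 14.9% falling), E2F7 rose by 0.23 (adjusted p = 2.0e-08), and over 24 alternatives its adjusted p ran from that value to 1. The per-length ratio of E2F7 to E2F8 was 19.2, 4.21 and 4.64 in controls and 44.1, 8.50 and 8.54 in knockdowns, higher in the knockdown of each pair.

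**Figure D2:**
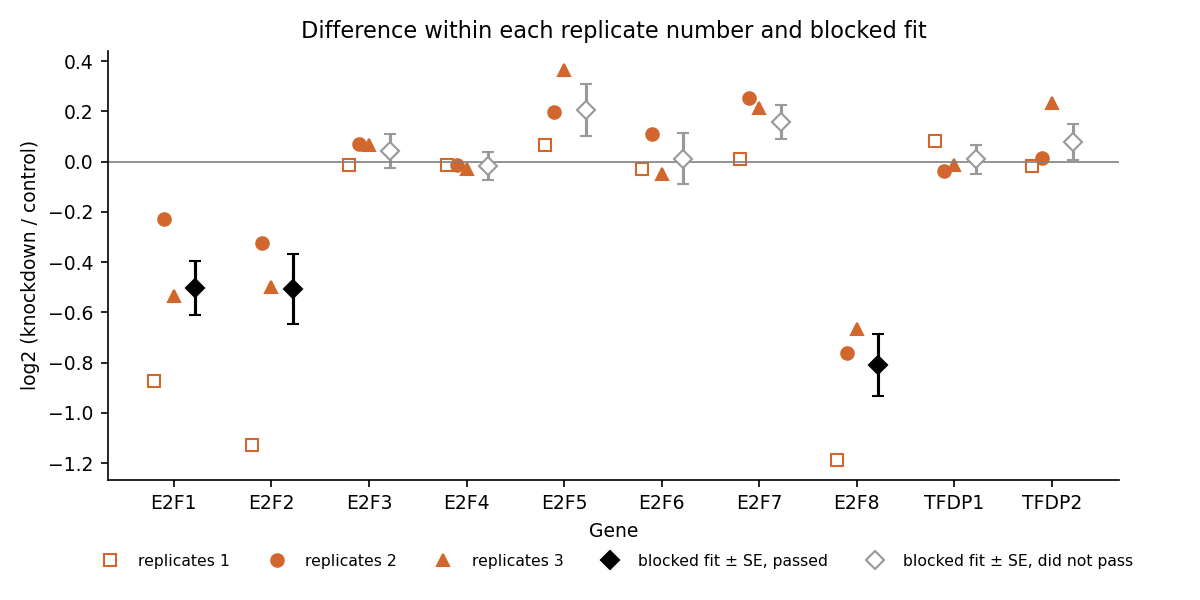
Log2 ratio of knockdown to control for each member, from CPM within replicate numbers 1, 2 and 3 (square, circle, triangle), beside the blocked estimate with its standard error (diamond, black where the adjusted p was under 0.05). E2F1, E2F2 and E2F8 lie below 0 in each pair, with the lowest value in pair 1, and single pairs of the other 7 members lie between -0.05 and 0.36.

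Among the members known as repressors with pocket proteins or Polycomb complexes, 0 of 3 passed in the blocked fit. E2F4 (chromosome 16, 67192169 to 67198918), the main E2F bound to pocket proteins in resting cells, was at 163, 244 and 250 CPM in controls and 161, 242 and 245 CPM in knockdowns. The knockdown held 99.0%, 99.1% and 97.9% of the control in pairs 1 to 3. Its log2 fold change was -0.02 (95% interval -0.15 to 0.11; adjusted p = 0.85) and 0.03 with upper-quartile scaling and the block. E2F6 (chromosome 2, 11444375 to 11466177) was at 13.1, 18.8 and 19.5 CPM in controls and 12.8, 20.3 and 18.9 CPM in knockdowns. Its pairs lay on both sides of 0, with a log2 fold change of 0.01 (95% interval -0.22 to 0.24; adjusted p = 0.95), or -0.002 with the block and no filter.

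E2F5 (chromosome 8, 85177225 to 85217158), a repressor that pairs mainly with p130, was the member with the highest estimate. It measured 26.0, 14.3 and 15.0 CPM in controls and 27.2, 16.4 and 19.4 CPM in knockdowns, higher in the knockdown of each pair with groups that overlapped. The log2 fold change was 0.20 ± 0.103 (SE; adjusted p = 0.22 in edgeR's blocked fit). It passed in replicates 2 and 3 alone (0.28, adjusted p = 0.047), the 1 call in 10 blocked fits, with adjusted p over 24 alternatives up to 1. Of its exon bases 18.6% are shared with genes on the opposite strand, among them C8orf59, and since the counting was not stated to use strand, part of its count is uncertain.

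Neither DP gene passed. TFDP1 (chromosome 13, 113584721 to 113641470), which encodes the main dimer partner of the E2Fs, was at 153, 427 and 409 CPM in controls and 162, 416 and 406 CPM in knockdowns. Both replicate 1 libraries were low, and within pairs the knockdown lay between 97.4% and 105.7% of the control. For TFDP1 the log2 fold change was 0.01 (95% interval -0.12 to 0.14; adjusted p = 0.93), and -0.01 in the fit without the block. TFDP2 (chromosome 3, 141944428 to 142149544), the second partner, was at 73.1, 72.3 and 67.5 CPM in controls and 72.3, 72.9 and 79.4 CPM in knockdowns. Its 6 libraries spanned a narrow range, with knockdown replicate 3 the highest, and its log2 fold change was 0.08 (95% interval -0.09 to 0.24; adjusted p = 0.52).

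Per length and by the control mean, TFDP1 was the most abundant member and E2F4 the most abundant E2F. Mean control FPKM (± SD, n = 3) was 88.5 ± 41.8 for TFDP1, 61.2 ± 14.3 for E2F4, 29.9 ± 2.86 for E2F7 and 24.4 ± 13.1 for E2F1. E2F3 followed at 10.9 ± 3.30, and TFDP2, E2F8, E2F6, E2F2 and E2F5 lay between 5.96 and 3.10. Of neighbours in this order, E2F4 and E2F7, and E2F3 and TFDP2, had control ranges that did not overlap and kept their order in 6 of 6 libraries. The other 7 neighbouring pairs had control ranges that overlapped. Replicate 1 shifts many members together, and within libraries E2F1 was above E2F3 in 3 of 3 controls and 5 of 6 libraries. TFDP1 was above E2F4 in 2 of 3 controls and 4 of 6 libraries. E2F7 was above E2F1, and TFDP2 above E2F8, in 1 of 3 controls and 4 of 6 libraries each. E2F8 was above E2F6 in 2 of 3 controls and 2 of 6 libraries.

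E2F1, E2F2 and E2F3 made up a smaller share of the summed E2F level in the knockdown of each pair. By summed FPKM they held 16.5%, 30.3% and 31.2% in controls and 12.7%, 27.7% and 26.0% in knockdowns, and control replicate 1 lay below both knockdown replicates 2 and 3. E2F7 and E2F8 together held 33.4%, 21.7% and 21.35% in controls and 34.6%, 23.7% and 24.2% in knockdowns, most of it E2F7. E2F4 alone held 42.9% to 43.4% in controls and 43.6% to 45.0% in knockdowns. These shares describe transcript levels per length, and no test was made on them.

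**Figure D3:**
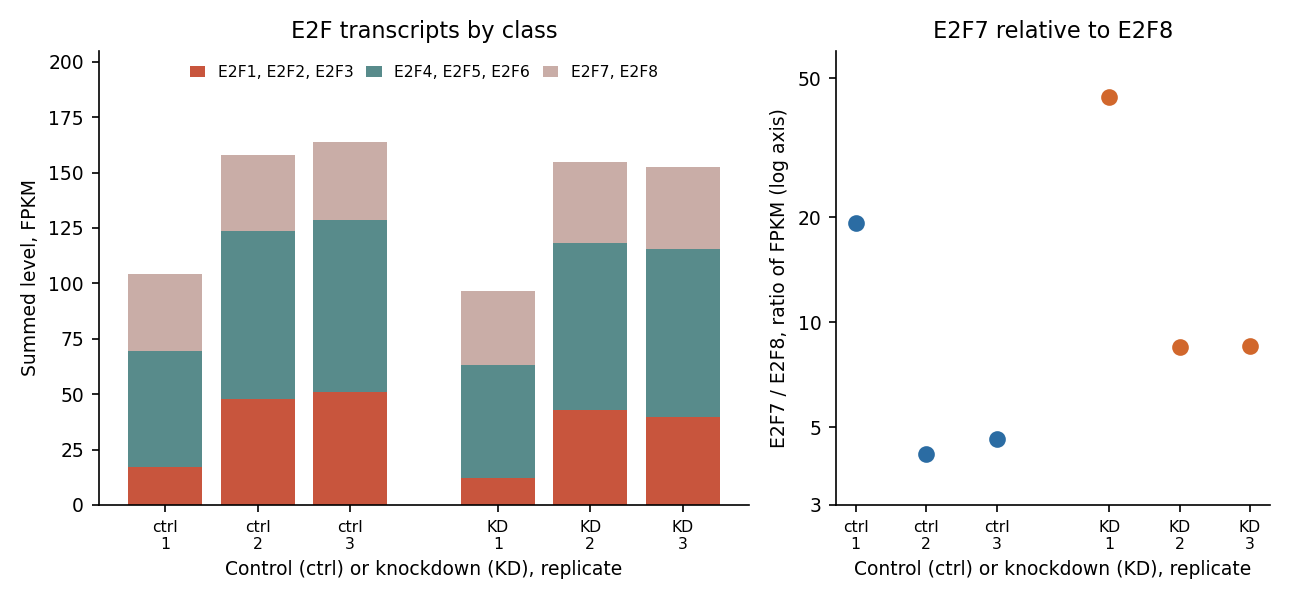
Left, summed FPKM of E2F1 to E2F3, E2F4 to E2F6 and E2F7 with E2F8 in each library (stacked bars from 0). Right, the ratio of E2F7 to E2F8 FPKM in each library (log axis, blue control, orange knockdown), which is 19.2 and 44.1 in replicate 1 and between 4.21 and 8.54 in replicates 2 and 3.

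Replicate 1 differed from replicates 2 and 3 in most members. Of the 10 members 7 were lower in replicate 1 than in replicates 2 and 3 of both groups, where 36.3% of all genes tested were. E2F2 was 7.13-fold lower in control and 11.7-fold lower in knockdown replicate 1 than the mean of replicates 2 and 3. E2F8 was lower by 3.63-fold and 5.04-fold, E2F1 by 3.31-fold and 4.65-fold, and TFDP1 by 2.73-fold and 2.53-fold. E2F3, E2F4 and E2F6 were lower by 1.47-fold to 1.86-fold. E2F5 and E2F7 were higher in replicate 1 of both groups, as were 37.7% of all genes tested, and TFDP2 did neither. The 5 proliferation markers MKI67, TOP2A, CCNB1, CDK1 and BUB1 moved the same way, summing to 956 CPM in control replicate 1 against 2186 and 2205 CPM, and to 799 CPM in knockdown replicate 1 against 2030.05 and 1979 CPM. Of these markers 2 of 5 fell in the blocked fit, where 8.01% of all genes fell. All 5 had a log2 fold change below 0, and 4 were lower in all 3 pairs, as were 26.9% of all genes. The part of these markers in the falls of E2F1, E2F2 and E2F8 was not tested. Fewer cells in S phase and less RNA of these genes per cell cannot be told apart in bulk libraries.

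Genes with a pattern most like E2F1 were sought by the root mean square difference of centred log2 CPM over the 6 libraries, among 9421 other genes at 10 CPM or more. The nearest to E2F1 were the histone variant gene H2AFX (0.11), the replication clamp gene PCNA (0.11) and RBL1, which encodes the pocket protein p107 (0.12), where the median gene was at 0.95. Nearest to E2F8 were the adhesion receptor gene ADGRV1 (0.15), the syndecan gene SDC1 (0.16) and the kinetochore gene SPC24 (0.17), with a median of 1.06. The measure takes in the difference between the groups, so the direction of these 6 genes in the knockdown is part of how they were chosen.

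Pocket proteins and MuvB form the complexes that E2F4 and E2F5 join. Of 10 genes for pocket proteins, MuvB subunits and the MuvB partners MYBL2 and FOXM1, 3 fell and 0 rose, where 8.01% of all genes fell. Their median log2 fold change was -0.22. RBL1 went from 27.8, 71.8 and 76.0 CPM in controls to 13.6, 60.7 and 55.4 CPM in knockdowns (-0.53), lower in each pair with groups that overlapped. MYBL2, which joins MuvB in S phase, fell by 0.36 (adjusted p = 0.054 without pair 2), and the histone-binding subunit RBBP4 fell by 0.31. RB1, the retinoblastoma gene (0.03), and FOXM1, a MuvB partner in G2 (-0.16), did not pass. The RBBP4 call was lost with upper-quartile scaling (adjusted p = 0.059), a mean of at least 5 CPM (0.061) and without pair 2 (0.083). Without pair 2, 1 of the 10 passed, where 932 of 15296 genes did.

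Upstream of the pocket proteins, 2 of 13 tested cyclin, CDK and CDK inhibitor genes fell and 0 rose, with a median of -0.14. The share called in either direction was near the 13.5% of all genes called in this fit, where 8.01% of all genes fell. Cyclin D1 (CCND1), which starts phosphorylation of the retinoblastoma protein, was at 590, 775 and 795 CPM in controls and 231, 458 and 466 CPM in knockdowns, with groups that did not overlap. That was a log2 fold change of -0.96 ± 0.115 (SE; adjusted p = 0.0036 in edgeR's blocked fit, 0.68 without the block). Its kinase partner CDK6 fell by 0.32, a call lost without pair 2 (adjusted p = 0.056), while CDK4 (0.09) and CDK2 (-0.20) did not pass. CDKN2A and CDKN2B, inhibitors of CDK4 and CDK6, had 0 counts in each of the 6 libraries, and CCND2 had at most 5.

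Of 34 tested G1/S genes known as E2F targets 13 fell, 21 did not pass and 0 rose, where 8.01% of all genes fell, and 33 had a log2 fold change below 0. The list was chosen with the falls of replication genes in these libraries known, so these counts are a description and not independent evidence of its direction. The median was -0.23, and -0.33, -0.17 and -0.20 in pairs 1 to 3, against medians over all genes tested of -0.02, 0.005 and 0.0009. MCM6, a subunit of the replicative helicase, was at 67.7, 141 and 135 CPM in controls and 38.6, 105 and 111 CPM in knockdowns. The knockdown of each pair was lower, control replicate 1 was lower than knockdown replicates 2 and 3, and the log2 fold change was -0.49 ± 0.095 (SE). The mismatch repair gene MSH6 (-0.46), the helicase gene MCM5 (-0.39) and PCNA (-0.37) fell as well, with adjusted p of 0.013 to 0.025 for these 4 genes in edgeR's blocked fit; PCNA did not pass without pair 2 (0.064). MCM4 (-0.25) and RRM1, a ribonucleotide reductase subunit (-0.06), did not pass. The number of falls was 5 without pair 2, where 625 of 15296 genes fell, and 22 without pair 1, where 14.9% of all genes did. It was 9 with DESeq2 and the block, where 6.8% of the genes it tested fell. An E2F word stood in 12 of 49 promoter windows (24.5%) of 31 of these genes.

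Among 7 tested apoptosis genes known as E2F1 targets 3 fell and 0 rose, where 8.01% of all genes fell. These were BBC3, PMAIP1 and HRK, BH3-only genes whose products antagonise BCL2 proteins. Another BH3-only gene of the list, BCL2L11, chosen for naming after its values were seen, was at 17.8, 6.71 and 7.18 CPM in controls and 13.0, 10.04 and 8.48 CPM in knockdowns. It did not pass (0.08, adjusted p = 0.82 in edgeR's blocked fit) and was called higher in replicates 2 and 3 alone (0.41, adjusted p = 0.046). PMAIP1 was at 491, 148 and 150 CPM in controls and 313, 93.3 and 90.9 CPM in knockdowns (-0.68 ± 0.058, SE; adjusted p = 0.00049 in edgeR's blocked fit). Unlike E2F1 it was highest in replicate 1, and its groups overlapped. BBC3 was at 26.7, 3.53 and 3.18 CPM in controls and 13.4, 1.39 and 1.64 CPM in knockdowns (-1.06), again highest in replicate 1. HRK fell by 0.99 (adjusted p = 0.0497), a call lost with limma-voom (0.083), upper-quartile scaling (0.059), a mean of at least 5 CPM (0.068) and without pair 2 (0.14). APAF1, the apoptosome scaffold, was at 26.2, 30.4 and 34.5 CPM in controls and 34.8, 39.5 and 35.3 CPM in knockdowns. It was the 1 tested gene of this list whose groups did not overlap, where 7.63% of all genes lay higher in every knockdown library. APAF1 did not pass (0.27, adjusted p = 0.099 in edgeR's blocked fit), and TP73 had 0 counts.

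Genes for E2F6 partners and for E2F protein turnover showed no call. Of 12 genes of the Polycomb complex PRC1.6, in which E2F6 binds DNA, 0 passed in edgeR's blocked fit or at its unadjusted p under 0.05, and the blocked fits of limma-voom and DESeq2 found 0 as well, while 4 rose in replicates 2 and 3 alone, where 12.7% of all genes did. CBX3, a chromodomain subunit, was at -0.03 (0.02 with upper-quartile scaling and the block) and the deacetylase gene HDAC2 at 0.07. Of 6 genes for cyclin A and for ubiquitin ligase factors that act on E2F proteins, 0 passed by the same 3 tools and 0 at an unadjusted p under 0.05, and 1 fell in replicates 2 and 3 alone, where 14.9% of all genes did. CDC20 (-0.03) and CCNA2 (-0.02) turned to 0.01 and 0.03 with upper-quartile scaling and the block. Of 4 germline genes that E2F6 represses, STAG3 was the 1 tested (-0.41, adjusted p = 0.59).

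**Figure D4:**
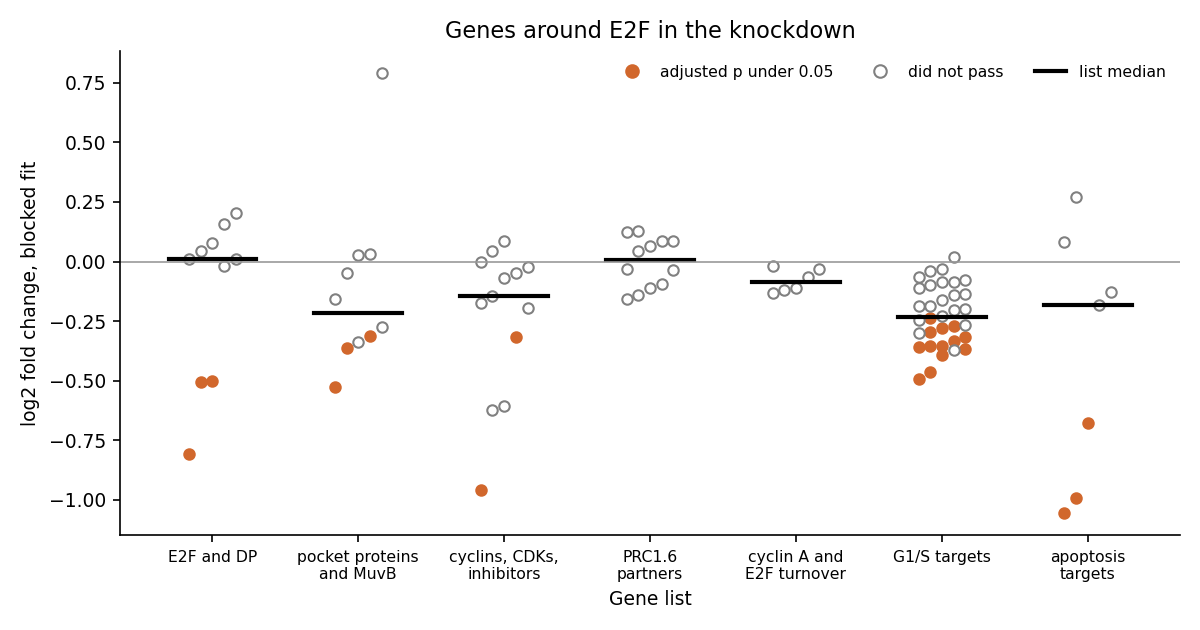
Log2 fold change in the blocked fit for each tested gene of 7 lists, orange where the adjusted p was under 0.05, with a bar at the list median. The G1/S targets lie below 0 with 1 exception, and the medians of the E2F and DP members and of the PRC1.6 partners lie at 0.01.

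The host genes of 2 microRNA clusters known to target E2F transcripts moved in opposite directions. MIR17HG was at 8.68, 15.1 and 11.4 CPM in controls and 13.5, 18.3 and 19.8 CPM in knockdowns, higher in each pair with groups that overlapped. It rose by 0.56 ± 0.130 (SE; adjusted p = 0.025 in edgeR's blocked fit), a call lost without pair 3 (0.11). MCM7, which hosts the other cluster in an intron, was at 130, 330 and 341 CPM in controls and 87.6, 291 and 282 CPM in knockdowns and fell by 0.33 (adjusted p = 0.026), a call lost without pair 2 (0.0504). The mature miRNAs were not measured. Their sequences from RefSeq (GRCh38.p14) are given 5′ to 3′ with the seed, bases 2 to 8, in capitals, because the clusters share it.
hsa-miR-17-5p, of MIR17HG: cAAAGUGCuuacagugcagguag
hsa-miR-20a-5p, of MIR17HG: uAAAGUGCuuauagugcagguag
hsa-miR-106b-5p, of MCM7: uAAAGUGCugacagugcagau
hsa-miR-93-5p, of MCM7: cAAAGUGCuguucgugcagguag
All 4 carry the same 7 bases in the seed.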

How the data were processed

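RNA-seq of 3 control and 3 NELFCD knockdown libraries was analysed from the deposited tables. Raw counts per gene and FPKM values, scaled by gene length and depth, were deposited by the authors with hg38 coordinates, per the file headers and the submitters' processing notes. The aligner, counter and strand setting were not given in the sources used here. Each FPKM equalled its count divided by gene length and by 1 constant per library, 0.9816 to 1.0735 times the total count. Of 58780 GENCODE 29 gene entries whose ID was among the deposited genes, 58769 had the same start and end. An ID with several entries was counted each time.

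Counts were tested with edgeR 4.0.16 (R 4.3.3) across all genes passing filterByExpr, with TMM scaling (trimmed mean of M-values) and Benjamini-Hochberg adjustment. The primary fit had no replicate term. Calls are quoted from a second fit that adds the replicate number as a blocking factor. Deviations of same-numbered libraries from their group means correlated across genes at 0.821, 0.591 and 0.578. Replicate 1 stood apart in both groups, which by itself moves replicates 2 and 3 together the other way. The values for replicates 2 and 3 thus cannot show that their numbers pair the samples. The labels give the numbers but do not state a pairing. Residual degrees of freedom were 4 and 2, to which edgeR adds information on the spread from all genes, and the common biological coefficient of variation was 32.6% and 8.17%. CPM used TMM-scaled totals. Pair values are log2 ratios of CPM. DESeq2 1.42.0 and limma 3.58.1 were alternatives. The fits were also run on simulated counts in which same-numbered libraries shared a mean. That setting builds in the pairing, so the check cannot show whether the calls hold in these libraries.

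Members and gene lists were chosen with earlier results of these data known. From each list, the text names at most 4 genes past the threshold of the blocked fit (largest change, mean of at least 1 CPM) and 2 that were not (highest level), with the 3 genes most like E2F1 and E2F8. A gene that this rule would name is not reported here.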

Additional observations from a re-analysis of the deposited data

How the results depend on the processing

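Which fit is used decides whether any member is called: edgeR without a replicate term called 0 genes and DESeq2 161 (50 higher, 111 lower), none a member, and with the replicate block edgeR called 2002 genes and 3 members. With the block, the counts of all genes and of members were 2040 and 3 with RLE size factors, 2184 and 2 with upper-quartile factors, 2888 and 3 for all genes unfiltered, 1807 and 2 for genes averaging 5 CPM or more, 1358 and 2 with DESeq2, and 2130 and 3 with limma-voom. Without replicate pairs 1, 2 and 3 the block gave 4090, 932 and 1760 genes and 5, 2 and 2 members, with other numbers of genes tested and fewer libraries each time; without single libraries and no block the counts were 0. E2F1 and E2F8 kept their direction in 24 of 24 alternatives (E2F1 was at -0.00023 without the block and knockdown replicate 1) and their call in 10 of 10 fits with the block. The libraries leave 2 residual degrees of freedom with the block and 1 without a pair, and edgeR adds information on the spread from all genes, on which the small p-values rest.

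Members near 0 changed sign. TFDP1 turned to 0.0089 with the block, 0.032 with upper-quartile factors, 0.0039 with the 5 CPM filter and 0.010 with limma-voom, and with the block to 0.056, 0.024 and 0.0058 for the same 3 settings. E2F4 turned to 0.024 with upper-quartile factors and 0.028 with the block as well. E2F6 turned to -0.0055 and -0.0081 on log2 FPKM with pseudocounts of 1 and 0.1, and to -0.0023 with the block and no filter. Upper-quartile factors, which move the median of all genes by 0.047, turned CBX3 to 0.038, CDC20 to 0.025, CCNA2 to 0.014 and RRM1 to 0.00086, and with the block CBX3, CDC20 and CCNA2 to 0.017, 0.014 and 0.026; CBX3 was 0.0079 with the 5 CPM filter. With the block, CBX3 turned to 0.075 without pair 1, E2F6 to -0.042, TFDP1 to 0.031 and RB1 to -0.041 without pair 2, and TFDP1 to 0.015 and TFDP2 to -0.0063 without pair 3.

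Leaving out single libraries without the block unbalances replicate 1 between the groups by construction, and 22 of the named genes changed direction, E2F2 among them. Log2 fold changes then ranged over BBC3 -2.876 to 0.7075, CBX3 -0.1486 to 0.2064, CCNA2 -0.3611 to 0.2966, CDC20 -0.4283 to 0.4089, CDK2 -0.4523 to 0.1448, CDK4 -0.1294 to 0.234 and E2F2 -0.9387 to 0.07123. Further ranges were E2F3 -0.1751 to 0.2887, E2F4 -0.1955 to 0.1485, E2F5 -0.0493 to 0.5162, E2F6 -0.1486 to 0.1883, FOXM1 -0.5505 to 0.2759, HDAC2 -0.08785 to 0.2707, MCM4 -0.5537 to 0.2468 and MCM5 -0.6423 to 0.05574. The rest were MCM7 -0.6084 to 0.1008, MYBL2 -0.7971 to 0.1263, PCNA -0.6861 to 0.143, PMAIP1 -1.519 to 0.1525, RB1 -0.06973 to 0.2251, RRM1 -0.3442 to 0.2914 and TFDP1 -0.3529 to 0.3132. The cause of the other sign changes was not tested. E2F2 and E2F8 had 25 to 106 reads in the replicate 1 libraries, whose total counts were like those of the others, so their counting error is largest there.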
